A study of Mus musculus with 8 samples.

Results

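Neuropeptides are short signalling peptides cut from larger precursor proteins, packed into dense-core vesicles and released from nerve endings. In sensory ganglia they mark classes of neurons: substance P and the calcitonin gene-related peptides come from peptidergic nociceptors, somatostatin from an itch-related class, and galanin, neuropeptide Y and vasoactive intestinal peptide are known for their rise after nerve injury. The precursor genes considered here were Tac1, Calca, Calcb, Gal, Npy, Sst, Adcyap1, Vip, Nts and Vgf, taken as a list of 10 known genes. The list was chosen with earlier results of these data known. Every probe set (a group of short oligonucleotides that reads 1 transcript region) whose platform annotation named only 1 of these genes was kept, whatever its signal. This gave 11 of the 45037 probe sets other than controls, and these read 9 of the 10 genes. Tac1 and Adcyap1 had a pair of probe sets each and the other 7 genes 1 each, while Calca had no probe set that names it alone and was not analysed here.

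Total RNA of mouse origin was measured on 8 one-colour oligonucleotide arrays, 4 labelled Ctrl (control) and 4 labelled Exp, numbered 1 to 4 within each group. The labels give no treatment, genotype, strain, sex or age for either group and do not say what Exp stands for, so Exp minus Ctrl is the comparison that can be made. On the tissue they disagree: a description gives trigeminal ganglion, which holds the sensory neurons of the face, and the source field gives brain and adrenal medulla. Separate animals or pools are not stated for the arrays, so the p-values reflect array-to-array spread, part of which could be technical. Sex-linked transcripts, given with Sst, differed between arrays of the same group, so the arrays of a group were not all repeats of 1 sample.

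The deposited values are linear signals, scaled so that arrays differ little in level (median 478 to 553). Of the tissue markers, the neurofilament gene Nefl had a mean signal of 111400, the sensory transcription factor Pou4f1 82950 and the peripheral neuron filament Prph 74220. Summed over 19 sensory neuron genes, the signal was 496876 to 533219 in Ctrl and 498017 to 573758 in Exp, and summed over 9 adrenal cortex genes it was 2160 to 2458 and 2416 to 2799. For 12 central neuron genes the summed signal was 24767 to 36364 in Ctrl and 21517 to 34945 in Exp. The brightest of them, Neurod1, had a mean signal of 20810, and 6 of the 12 lay under the 40th percentile of mean signal. Which tissue label holds was not tested. Of 15 sympathetic and chromaffin genes 7 were above and 8 below 0 in Exp minus Ctrl, where 50.7% of all probe sets were below 0. Of these genes 0 were called, and their summed signal was 28789 to 31491 in Ctrl and 26451 to 30337 in Exp. Th, which limits catecholamine synthesis, had a mean signal of 5249 and differed by -0.07 (SE 0.18). The embryonic globin gene Hbb-y had a mean signal of 101900. The labels give no age, and the stage of the tissue was not tested. Levels of different probe sets are not comparable, so these signals describe each gene or list over the arrays and give no order of cell types. In Exp 3, and less so in Exp 2, skeletal muscle genes stood out, with a list mean 1.60 and 0.54 log2 units above the mean of the 8 arrays. The epithelium list was also highest on these arrays, at 0.44 (Exp 3) and 0.39 (Exp 2). The sympathetic and chromaffin list was highest on Exp 3 too, at 0.26. Actin control probes at the 3' end over those at the 5' end, a measure of RNA integrity and labelling, averaged 4.36 in Ctrl and 4.55 in Exp on the log2 scale (exact two-sided permutation test, p = 0.0571, n = 4 each). On single arrays this ratio was 4.31 (Ctrl 4) to 4.67 (Exp 2), so the 3' end read far above the 5' end on every array. The part of this ratio in the results was not tested.

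The promoters of 3 precursors are shown because the results below turn on these genes: Npy and Vip had the largest differences between the groups, and Sst divided the arrays in another way. Each sequence is the 250 bases before the annotated start site, 5′ to 3′ on the gene's strand, from the RefSeq annotation of GRCm38.p6. Capitals mark TGACG, the core of the cAMP response element, and TATAAA, the TATA box, on either strand. Npy lies at chr6:49822460-49822709 on the plus strand, Vip at chr10:5638968-5639217 on the plus strand and Sst at chr16:23890845-23891094 on the minus strand.
Npy: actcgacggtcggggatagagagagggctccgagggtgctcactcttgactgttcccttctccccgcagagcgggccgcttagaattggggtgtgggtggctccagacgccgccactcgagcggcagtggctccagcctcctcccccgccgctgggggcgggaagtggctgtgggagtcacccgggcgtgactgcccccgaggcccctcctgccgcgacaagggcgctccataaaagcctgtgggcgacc
Vip: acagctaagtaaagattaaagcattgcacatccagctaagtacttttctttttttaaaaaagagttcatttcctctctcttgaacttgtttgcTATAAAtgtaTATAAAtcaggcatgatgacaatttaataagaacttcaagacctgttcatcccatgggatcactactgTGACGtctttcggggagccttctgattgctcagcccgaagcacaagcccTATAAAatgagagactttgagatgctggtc
Sst: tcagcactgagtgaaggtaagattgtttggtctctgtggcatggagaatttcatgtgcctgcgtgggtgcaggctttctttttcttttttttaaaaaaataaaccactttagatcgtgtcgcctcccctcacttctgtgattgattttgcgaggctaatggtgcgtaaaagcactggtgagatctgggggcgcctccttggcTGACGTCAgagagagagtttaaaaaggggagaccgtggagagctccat
The full palindrome TGACGTCA, which contains TGACG on both strands, began 48 bases before the Sst start and was found in 1.55% of all 32851 promoter windows of this length. In Vip, TGACG began 79 bases and the nearest TATAAA 30 bases before the start, and neither string occurred in the Npy window. Windows were at hand for 8 of the 10 genes. TGACG occurred in 6 of them (Tac1, Calca, Sst, Adcyap1, Vip and Nts) against 17.8% of all windows, and TATAAA in Vip and in 1 of the 2 Adcyap1 windows against 12.4%. These are matches of letters only, and no binding was measured.

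Signals of the sensory neuropeptide precursors were close between Exp and Ctrl, with Npy and Vip the furthest apart. Of the 11 probe sets 0 passed the 5% false discovery rate in limma, which called 0% of all 45037 probe sets; the smallest adjusted p was 0.997 among the precursors and 0.0966 among all probe sets. At an unadjusted p under 0.05 the limma fit held 1 of the 11 (Npy, lower in Exp), where 4.93% of all probe sets met this limit, 2.48% lower and 2.45% higher in Exp. The groups did not overlap for 0 of the 11, against 2.52% of all. A log2 difference over 0.5 in size was seen for 2 of the 11, Npy and Vip, against 14.6% of all. The difference was below 0 in 7 (50.7% of all probe sets) and above 0 in 4, with a median of -0.06 log2 units, and the median over all probe sets was -0.0035. Differences are on the log2(signal + 16) scale after quantile normalization, which understates the change of low signals. For 9 of the 11 the 95% confidence interval lay within 1 log2 unit of 0, that is, within a doubling or halving, as it did for 67.6% of all probe sets. The intervals of Npy and Vip reached further.

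**Figure D1:**
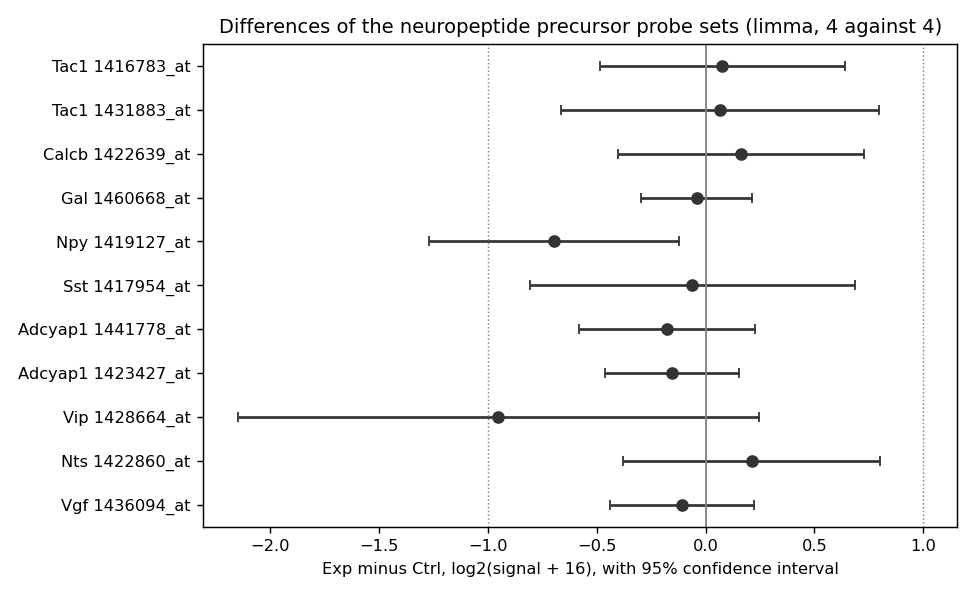
Exp minus Ctrl for the 11 neuropeptide precursor probe sets. Points are log2 differences and bars 95% confidence intervals from limma, with dotted lines at 1 log2 unit either side of 0. The interval of Npy, from -1.27 to -0.12, is the only one that does not hold 0, and that of Vip, from -2.15 to 0.25, is the widest.

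Tac1, Calcb and Adcyap1 encode peptides of nociceptive neurons: substance P and neurokinin A, the beta form of calcitonin gene-related peptide, and PACAP. The bright Tac1 probe set (1416783_at) had signals of 5536, 9653, 5789 and 8433 in Ctrl 1 to 4 and of 5360, 8158, 7662 and 9118 in Exp 1 to 4. Ctrl 1, Ctrl 3 and Exp 1 were thus low, at 5360 to 5789, and the other 5 arrays were at 7662 to 9653, with both groups on either side. The highest array exceeded the lowest by 1.80-fold, while the group means were 12.8 ± 0.38 in Ctrl and 12.9 ± 0.35 in Exp (log2, SD, n = 4 each). The difference of 0.08 (SE 0.24, 95% confidence interval -0.49 to 0.64; limma, adjusted p = 0.999) was smaller than the spread within either group. The other Tac1 probe set (1431883_at) was dim, with signals of 92 to 238 in Ctrl and 88 to 219 in Exp, and differed by 0.07 (SE 0.32). The 2 probe sets did not follow each other over the arrays: the dim one was high on Ctrl 1 and Exp 1, where the bright one was low, but on Ctrl 3 both were low and on Exp 4 both were high.

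Calcb (1422639_at), whose paralogue Calca was not analysed, had signals of 301, 323, 286 and 254 in Ctrl and of 246, 311, 314 and 575 in Exp. Exp 4 was alone above 323 and the other 7 arrays overlapped. The difference was 0.16 (SE 0.24), and without Exp 4 it was -0.061.

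Both Adcyap1 probe sets were bright and moved alike over the arrays. The brighter one (1441778_at) had signals of 4149, 6450, 4634 and 3860 in Ctrl and of 3670, 4282, 4123 and 4259 in Exp, and the other (1423427_at) had 3599, 4673, 4425 and 3740 in Ctrl and 3365, 3615, 3540 and 3984 in Exp. Ctrl 2 was the highest and Exp 1 the lowest array on both. They differed by -0.18 (SE 0.17) and -0.15 (SE 0.13), with 95% confidence intervals from -0.58 to 0.23 and from -0.46 to 0.16. Without Ctrl 2 the differences were -0.0272 and -0.0923.

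Gal encodes galanin, a peptide that acts on spinal and sensory neurons through the receptors Galr1 to Galr3. Its probe set (1460668_at) had signals of 14451, 18222, 17490 and 17529 in Ctrl and of 16207, 16174, 15690 and 17022 in Exp. Its highest array exceeded the lowest by 1.26-fold, the smallest ratio among the 11 probe sets. The 4 Exp values lay inside the Ctrl range, and the difference was -0.04 (SE 0.11, 95% confidence interval -0.29 to 0.21; limma, adjusted p = 0.999). Leaving out 1 array moved it between -0.104 (without Ctrl 1) and -0.012 (without Ctrl 2). Vgf is a granin induced by neurotrophins, and its fragments are secreted. Its signals (1436094_at) were 5254, 6090, 5022 and 5565 in Ctrl and 4886, 5790, 4055 and 5424 in Exp, lowest on Exp 3, and the difference was -0.11 (SE 0.14), or -0.00898 without Exp 3.

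**Figure D2:**
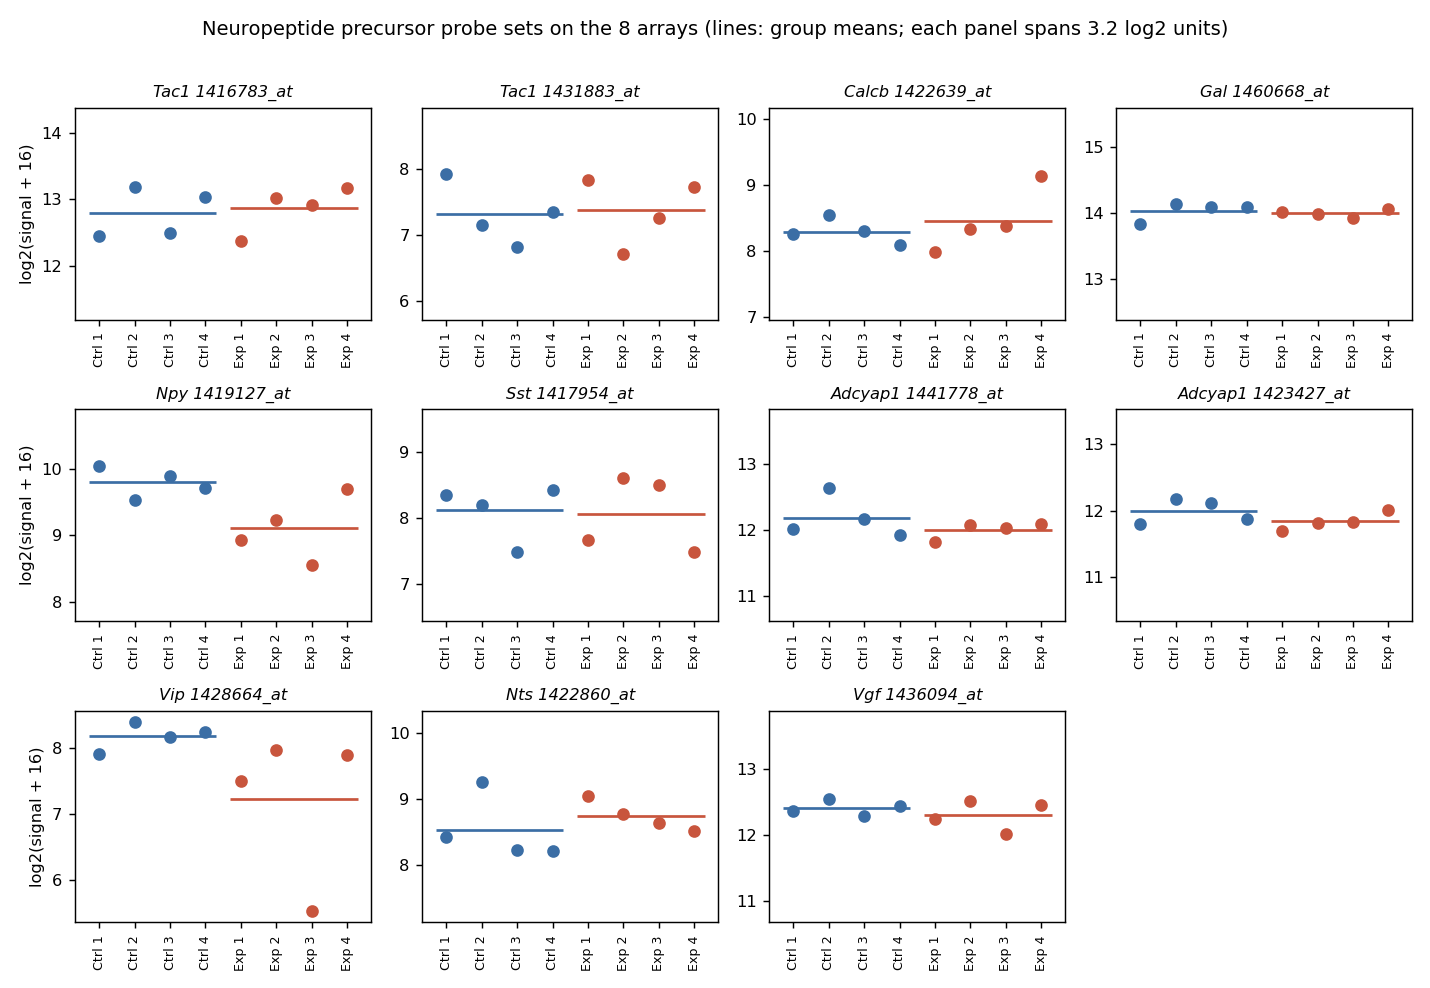
Levels of the 11 probe sets on each array, as quantile-normalised log2(signal + 16), with Ctrl in blue, Exp in red and lines at the group means. Panels share 1 span but not their position, since levels of different probe sets cannot be compared; the points of Gal spread over 0.28 log2 units and those of Vip over 2.87.

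Npy encodes neuropeptide Y, which is made by sympathetic neurons and by injured sensory neurons. Its probe set (1419127_at) had signals of 1089, 675, 927 and 802 in Ctrl and of 488, 597, 357 and 848 in Exp. Exp 1, Exp 2 and Exp 3 lay below every Ctrl array, whereas Exp 4 lay above Ctrl 2, so the groups overlapped. Levels were 9.80 ± 0.22 in Ctrl and 9.11 ± 0.48 in Exp (log2, SD, n = 4 each). The difference was -0.70 (SE 0.25, 95% confidence interval -1.27 to -0.12, 0.618-fold), with an unadjusted p of 0.0238 and an adjusted p of 0.997 in limma. The exact two-sided permutation test of this probe set gave p = 0.0571, where 4 against 4 arrays allow no value under 0.0286. Over 17 other settings the difference stayed below 0, between -0.90 (without Exp 4) and -0.52 (without Exp 3), and the adjusted p between 0.825 and 1.

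Vip encodes vasoactive intestinal peptide, a relative of PACAP that shares its receptors Vipr1 and Vipr2. Its probe set (1428664_at) was dim, with signals of 234, 291, 259 and 283 in Ctrl and of 172, 236, 31 and 239 in Exp. Exp 3 stood far below the other 7 arrays, while Exp 2 and Exp 4 were at the level of Ctrl 1. The difference was -0.95 (SE 0.52; limma, adjusted p = 0.997; exact permutation p = 0.0571). Without Exp 3, the array richest in muscle markers, it was -0.386 (SE 0.179; limma, unadjusted p = 0.0689, adjusted p = 0.904).

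Npy and Vip were both lowest on Exp 3, the array with the highest muscle markers, so their levels were set beside 10 lists of cell type markers. The 11 precursor probe sets and the 10 lists gave 110 relations over the 8 arrays, a choice made after the values had been seen, and 1 passed after Benjamini-Hochberg adjustment. Npy varied with the mean of 13 Schwann cell and satellite glia genes (Pearson r = 0.964, exact permutation p = 0.000149, adjusted p = 0.0164; Spearman rho = 0.929, exact permutation p = 0.00223, adjusted p = 0.246). Without Ctrl 1 and Exp 3, the arrays with the most extreme list means, r was 0.904, and over deviations from the group means it was 0.922. The adjusted exact permutation p did not stay under 0.05 without Ctrl 1, Ctrl 3 or Exp 1 (0.131 each), Ctrl 4 (0.0873), Exp 2 (0.0655) or Exp 3 (0.262), or with arrays centred on their medians (0.0505), and r was then 0.93 to 0.98. The list mean, in log2 units from the mean of the 8 arrays, was 0.32, 0.01, 0.20 and 0.14 in Ctrl. In Exp it was -0.25, 0.00, -0.41 and 0.00. By their brightest probe sets 11 of the 13 genes were lower in Exp, against 50.7% of all probe sets, and 0 were called. The list was singled out by its r with Npy, itself lower in Exp, so this count is a description and no test. The summed signal of the list was 204625 to 249055 in Ctrl and 196536 to 246775 in Exp.

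The gene of the list with the highest r, named after its values were seen, was Egr2, the transcription factor of myelination, whose signal varied most in the list (SD 2.10 log2 units over the 8 arrays, against at most 0.47 for the other 12 genes). Egr2 had signals of 9438, 511, 5738 and 5303 in Ctrl and of 522, 572, 149 and 2098 in Exp, and its r with Npy was 0.924. Between the groups it differed by -2.66 (SE 1.03; limma, unadjusted p = 0.033, adjusted p = 0.997). Without Egr2, a change made after its values were seen, the list mean had r = 0.708 with Npy, and no p-value was computed for this. Of the 13 genes 12 had an r with Npy above 0, against 49.5% of all probe sets, and 5 had one over 0.5, with a median of 0.427. The list was singled out by its r with Npy on these same arrays, so these counts describe its genes and do not test the relation. Beside Egr2, r was highest for Mbp (myelin basic protein, 0.84), and it was near 0 for Apoe (0.0591) and Gja1 (0.114) and negative for Fabp7 (-0.418). In bulk RNA, fewer cells of a type and less RNA per cell cannot be told apart, and the part of glial content in the Npy difference was not tested. Other relations of the 110 did not pass, and 7 (6.36%) had an unadjusted exact permutation p under 0.05. Npy with the sympathetic and chromaffin list was not among the 7 (r = -0.465, rho = -0.381, exact permutation p of r = 0.248). Nor was Npy with the sensory neuron list (r = 0.178, rho = -0.0952, exact permutation p of r = 0.689). Npy and the pituitary list had r = 0.864 and rho = 0.833 (exact permutation p = 0.00397 and 0.0154, adjusted p = 0.146 and 0.423), with r = 0.695 without Ctrl 1 and Exp 3. By their brightest probe sets, 7 of the 8 measured pituitary genes lay under the 40th percentile of mean signal, where signals may be background. Of Vip with the glial list r was 0.777 and rho 0.667 (exact permutation p = 0.0151 and 0.0831, adjusted p = 0.277 and 0.609). This r was 0.793 without Ctrl 1 and Exp 3, but it had opposite signs within the groups, -0.986 in Ctrl and 0.898 in Exp. With the skeletal muscle list, r was -0.822 for Npy and rho -0.81 (exact permutation p = 0.0127 and 0.0218, adjusted p = 0.277 and 0.479), and r was -0.532 without Exp 2 and Exp 3. For Vip and skeletal muscle r was -0.842 and rho -0.286 (exact permutation p = 0.0523 and 0.501, adjusted p = 0.557 and 0.946), and without Exp 2 and Exp 3 r was -0.0433, so that relation rested on those arrays. The dimmer Adcyap1 probe set and the sensory neuron list had r = 0.849 and rho = 0.881 (exact permutation p = 0.00308 and 0.00724, adjusted p = 0.146 and 0.393), with r = 0.843 without Ctrl 2 and Exp 4. For the brighter one r was 0.898 and rho 0.714 (exact permutation p = 0.0122 and 0.0576, adjusted p = 0.277 and 0.576), and r fell to 0.475 without those arrays. The dimmer one and the leukocyte list had r = 0.764 and rho = 0.667 (exact permutation p = 0.0311 and 0.0831, adjusted p = 0.489 and 0.609), with r = 0.138 without Ctrl 2 and Ctrl 3.

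**Figure D3:**
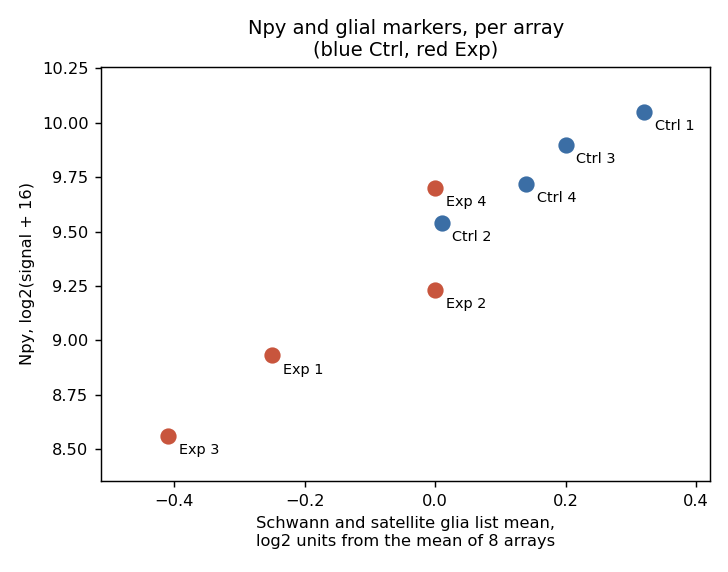
Npy on each array (vertical axis, log2(signal + 16)) against the mean of 13 Schwann cell and satellite glia genes (horizontal axis, log2 units from the mean of the 8 arrays), with Ctrl in blue and Exp in red. Exp 3 (-0.41, 8.56) and Exp 1 (-0.25, 8.93) lie lowest on both axes and Ctrl 1 (0.32, 10.05) highest, while Exp 4 sits beside Ctrl 2.

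Sst encodes somatostatin, an inhibitory peptide of a small class of sensory neurons. Its probe set (1417954_at) had signals of 327, 253, 158 and 323 in Ctrl and of 193, 378, 339 and 171 in Exp. Ctrl 3, Exp 1 and Exp 4 were low, at 158 to 193, and the other 5 arrays were at 253 to 378, with both groups on either side. The difference between the groups was -0.06 (SE 0.32, 95% confidence interval -0.81 to 0.69; limma, adjusted p = 0.999). The same 3 arrays had signals of 35960 to 48144 for Xist, the X-inactivation RNA of female cells, and of 118 to 408 for the Y-linked gene Eif2s3y. The other 5 had 664 to 1801 for Xist and 5116 to 11038 for Eif2s3y.

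In the limma fit with the Eif2s3y signal as a covariate, the slope of Sst was 0.16 log2 units per log2 unit of Eif2s3y (SE 0.025, unadjusted p = 0.000325, adjusted p = 0.48). This slope was read after the values were seen and did not pass, in a fit that called 2 of 45036 probe sets (0.00444%), of which 1 names the Y-linked gene Kdm5d. At an unadjusted p under 0.05, 1 of the 11 precursor probe sets (Sst) met the limit, against 4.54% of all. With this covariate the Exp minus Ctrl difference of Sst was 0.0747, and its SE went from 0.324 to 0.13. For the other 10 precursor probe sets the unadjusted p of the slope ran from 0.278 (Npy) to 0.916 (Vgf). The Sst probe set was dim, its mean signal of 267.6 lying under the 40th percentile of all probe sets, as did those of Vip, Calcb and the dim Tac1 probe set.

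**Figure D4:**
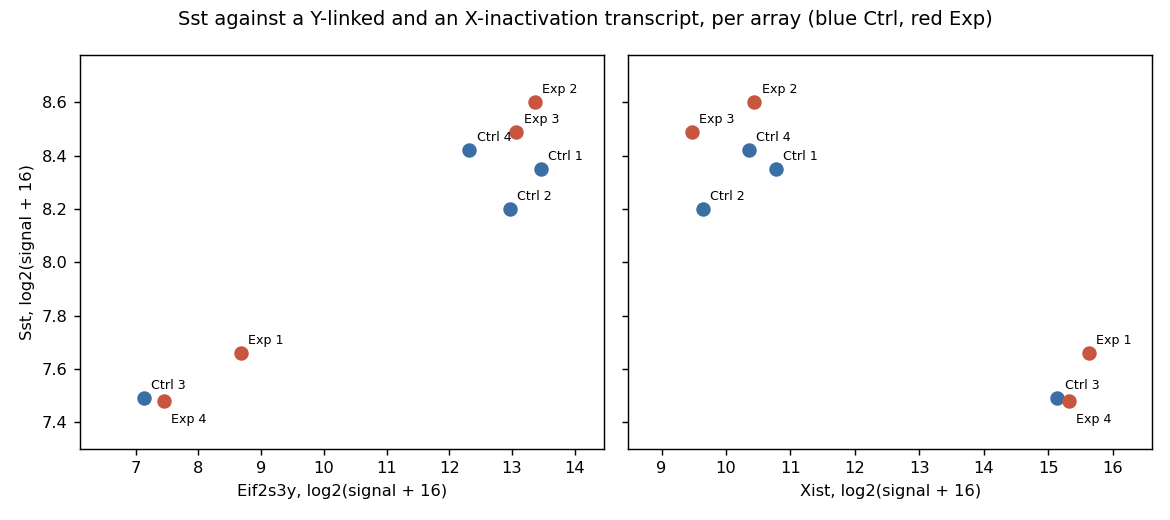
Sst on each array (vertical axes) against the Y-linked transcript Eif2s3y (left) and Xist (right), all as log2(signal + 16), with Ctrl in blue and Exp in red. Ctrl 3, Exp 1 and Exp 4, with Xist between 15.14 and 15.63, are the 3 lowest in Sst, at 7.48 to 7.66, and the other 5 arrays lie between 8.20 and 8.60.

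Nts encodes neurotensin, a peptide that lowers pain when given to the spinal cord or brain. Its probe set (1422860_at) had signals of 346, 551, 271 and 276 in Ctrl and of 533, 426, 375 and 375 in Exp. Ctrl 2 was the highest array of all, and the other 3 Ctrl arrays were below the 4 Exp arrays. The difference was 0.21 (SE 0.26; limma, adjusted p = 0.997), and without Ctrl 2 it was 0.454 (unadjusted p = 0.0278). Ctrl 2 was also the highest array for Gal, both Adcyap1 probe sets, Vip, Vgf and the bright Tac1 probe set, which makes 7 of the 11, while Exp 1 was the lowest on 4 and Exp 3 on 3.

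The peptides act through G protein-coupled receptors. Of 25 listed receptor genes 24 were measured by 41 probe sets, of which 0 were called in either direction. At an unadjusted p under 0.05 limma had 3 higher and 1 lower in Exp, against 2.45% and 2.48% of all probe sets. The list's median difference was -0.02. The 3 higher ones read Ntsr1, Vipr2 and, named after its values were seen, the somatostatin receptor gene Sstr4, and the lower one reads Calcrl. Ntsr1, the high-affinity neurotensin receptor, had signals of 190, 173, 192 and 128 in Ctrl and of 247, 286, 369 and 264 in Exp. All 4 Exp arrays were above the 4 Ctrl arrays, and the difference was 0.65 (SE 0.19; limma, unadjusted p = 0.00961, adjusted p = 0.997). Of the bright receptor genes, Npy1r and Npy5r, receptors of neuropeptide Y, differed by 0.16 (SE 0.19) and -0.05 (SE 0.24), the PACAP receptor Adcyap1r1 by 0.15 (SE 0.23) and the neurotensin-binding sorting receptor Sort1 by 0.02 (SE 0.10). Vipr2, a receptor of VIP and PACAP, differed by 0.67 (SE 0.26) at signals of 19 to 98, or by 0.374 with a pseudocount of 64 and 0.917 with 1, the dim Sstr4 probe set by 1.41 (SE 0.53), and Ramp3, a partner of the calcitonin receptor-like receptor, by 0.33 (SE 0.17). The unadjusted p of Vipr2 in limma was under 0.05 in 8 of 16 other settings. Sstr4 also had a brighter probe set (1457440_at), whose unadjusted p in limma was not under 0.05.

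Several receptor genes had more than 1 probe set. For Calcrl, which forms the receptor of calcitonin gene-related peptide with Ramp1, a dim probe set (1418489_a_at) had signals of 277 to 379 in Ctrl and of 177 to 273 in Exp and differed by -0.53 (SE 0.15; limma, unadjusted p = 0.00865, adjusted p = 0.997). The brightest Calcrl probe set, with signals of 1537 to 2336 in Ctrl and of 921 to 2974 in Exp, differed by -0.11 (SE 0.33), and the dimmest by -1.30 (SE 0.62), so all 3 were below 0. Calcrl was named after its values were seen. For Npy1r the dimmer probe set differed by -0.31 (SE 0.15), opposite to the brighter one.

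Precursors are cut by convertases, trimmed by carboxypeptidase E and stored with granins. Of 17 such genes 16 were measured by 24 probe sets, with 0 called in either direction and a median difference of -0.09. At an unadjusted p under 0.05 in limma 0 were higher and 1 lower, against 2.45% and 2.48% of all probe sets. The lower one was a dimmer probe set of Cpd, carboxypeptidase D, at -0.48 (SE 0.18), and the brightest Cpd probe set differed by -0.10 (SE 0.12). Cpe, carboxypeptidase E, had signals of 78240 to 92430 in Ctrl and of 76988 to 93092 in Exp and differed by -0.03 (SE 0.097). The granins Scg3 and Chgb differed by -0.02 (SE 0.11) and -0.10 (SE 0.099), and Cadps, which primes dense-core vesicles, by -0.09 (SE 0.20). By each gene's brightest probe set, the smallest p values of the list were those of the granin Scg2 at -0.48 (SE 0.22), the convertase Furin at -0.26 (SE 0.14) and Qpct, which forms pyroglutamate at peptide ends, at 0.31 (SE 0.20). Without Ctrl 2 Scg2 differed by -0.267, and without Exp 3 Qpct by 0.178.

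Of 35 other peptide precursor genes 32 were measured by 40 probe sets. Of these 0 were called in either direction, and the median difference was -0.11. At an unadjusted p under 0.05 in limma 0 were higher and 4 lower, against 2.45% and 2.48% of all probe sets. Cck, the precursor of cholecystokinin, had signals of 267, 327, 243 and 313 in Ctrl and of 200, 252, 216 and 151 in Exp, and differed by -0.54 (SE 0.19). Tac2, the neurokinin B precursor and a relative of Tac1, had signals of 161 to 236 in Ctrl and of 52 to 162 in Exp and differed by -0.88 (SE 0.31). Cort, the precursor of the somatostatin-like cortistatin, differed by -1.13 (SE 0.43). The bright precursors were closer: Penk, the enkephalin precursor, differed by -0.19 (SE 0.27), Nucb2 by 0.05 (SE 0.15), Oxt by -0.05 (SE 0.14) and Apln by -0.17 (SE 0.15).

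Named after its values were seen, a dim probe set of Edn3 (1421136_at), the precursor of endothelin-3, had signals of 181, 238, 163 and 214 in Ctrl and of 50, 97, 47 and 54 in Exp. It differed by -1.54 (SE 0.23; limma, unadjusted p = 0.000156, adjusted p = 0.38), and the other Edn3 probe sets differed by -0.87 (SE 0.56), -0.86 (SE 0.61) and 0.0041 (SE 0.38). Over the 3 lists, 9 of 105 probe sets (8.57%) had an unadjusted p under 0.05 in limma, 3 higher and 6 lower in Exp, against 4.93% of all probe sets, and in 6 the groups did not overlap, against 2.52%. With 0 called, nothing in these lists passed the test.

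**Figure D5:**
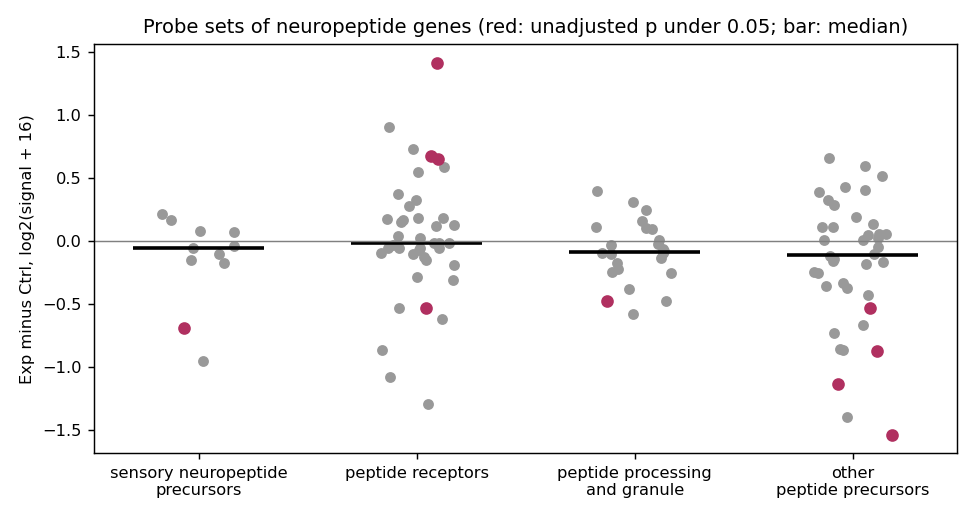
Exp minus Ctrl of each probe set (log2(signal + 16)) for the sensory neuropeptide precursors and for 3 lists of receptors, processing and granule genes, and other precursors. Black bars are medians (-0.06, -0.02, -0.09 and -0.11) and red points have an unadjusted p under 0.05 in limma; the lowest red point is Edn3, at -1.54.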

How the data were processed

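The 8 arrays were grouped by their titles into 4 Ctrl and 4 Exp. The deposited values are linear intensity values for each probe set. The authors' method of summary and scaling was not given in the sources used here. With 2% of values left out at each end, the mean signal was 2499 on all 8 arrays, so the values had been scaled to a common trimmed mean. The values carry no detection call, so low signals may be background. The number of arrays limits the precision. The members and gene lists were chosen with earlier results of these data known. Signals were taken as log2(signal + 16) and quantile-normalised, since array medians differed by up to 0.203 log2 units, and the difference between groups was fitted with limma (version 3.58.1, under R 4.3.3) over all 45037 probe sets other than 64 controls, with no filter, so that dim members kept a value. P-values are two-sided, with Benjamini-Hochberg adjustment and a 5% false discovery rate. Names came from the platform annotation, updated through RefSeq (GRCm38.p6). Probe sets with several names (932) or none (9160) were not named. Genes named beyond the members were, per list, the 3 with the smallest p and the 4 brightest (marker lists: the 3 brightest), by the brightest probe set, and exceptions are marked. Scripts were tested on simulated data.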

Additional observations from a re-analysis of the deposited data

Results flagged for a closer look

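A value stands here if, among the 4 arrays of its group, it lay apart from its nearest neighbour by more than the 95% limit of Dixon's gap test. This was so in 3 of 150 groups, where chance gives about 7.5. Gal on Ctrl 1 was 13.84 (the other Ctrl arrays 14.09 to 14.13, log2). Insm1, a transcription factor of neuroendocrine cells, was 13.53 on Exp 1 (the other Exp arrays 12.74 to 12.88). The mean of the central neuron markers was 0.29 on Ctrl 4 (the other Ctrl arrays -0.11 to -0.07).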

How the results depend on the processing

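The counts of 0 called precursor and 0 called pathway probe sets held with pseudocounts of 1 and 64, filters at the 40th and 60th percentile, no normalization, centring on medians, trend and robust options, array weights, the Eif2s3y covariate, the replicate block and without each array. The filters left 7 and 5 precursor probe sets. Same-numbered arrays did not deviate together over all probe sets (r from -0.04 to 0.01). This cannot exclude that the numbers pair them, since a pairing that touches few probe sets would not show. With the replicate number as a block in limma, Npy was -0.695 (unadjusted p = 0.0533, adjusted p = 0.979) and 0 were called. Averaging both probe sets gave 0.0725 for Tac1 and -0.165 for Adcyap1. Differences near 0 changed sign. Sst was 0.0044 without normalization, 0.00486 with array weights and 0.0747 with the covariate; centring on medians gave -0.0472 for Sort1 and -0.0111 for Nucb2, and no normalization 0.0402 for Cpe; the cause was not tested. Without 1 array, signs changed within the ranges -0.0386 to 0.244 and -0.0952 to 0.293 for the Tac1 probe sets, -0.0612 to 0.325 for Calcb, -0.268 to 0.133 for Sst, -0.00292 to 0.0567 for Sort1, -0.192 to 0.116 for Npy5r, -0.0667 to 0.0075 for Scg3, -0.324 to 0.0545 for Penk, -0.0496 to 0.129 for Nucb2 and -0.108 to 0.0481 for Oxt. For Npy and the glial list, in settings added after the data were seen, r was 0.94 with medians centred (adjusted p = 0.0505) and 0.93 to 0.985 without 1 array, where fewer arrays allow fewer orders; the adjusted p was then over 0.05 without Ctrl 1, 3 or 4 or Exp 1, 2 or 3, and highest without Exp 3 (0.262). Dim probe sets carry no background measure, which limits Vip, Sst, Calcb and Nts.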
